A study of Mus musculus with 8 samples.

Results

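The chemokine genes were taken as every probe whose gene symbol is Ccl, Cxcl, Cx3cl or Xcl followed by a number, with or without letters after it. The rule used names and no measured value. It took 50 of the 45281 probes, for 35 of the 30789 gene symbols, and 12 of the 35 genes had more than 1 probe. The probes were measured on 8 Illumina MouseWG-6 v2.0 bead arrays of thioglycollate-elicited peritoneal macrophages from C57/BL6 mice aged 8 weeks. 4 arrays carried RNA of cells incubated for 24 h with acetylated low density lipoprotein (Ac-LDL, 120 μg per ml), a modified lipoprotein that macrophages take up and turn into lipid droplets, and 4 carried RNA of mock-treated control cells. All of the mice were of this background, no allele or other agent set the groups apart, and the labels number each group as biological replicates 1 to 4 without saying whether cells of several mice were pooled. Such macrophages enter the peritoneum after injection of an irritant broth, and the study's methods describe peritoneal macrophages as coming from adult males, kept as an adherent layer and grown in medium conditioned by L-929 cells. Replicates 1 and 2 of both groups lay on slide 1 and replicates 3 and 4 of both groups on slide 2, so the slide and whatever else the replicates on it shared cannot be told apart.

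Chemokines are small secreted proteins that guide leukocytes along gradients by binding receptors on their surface. The CC family holds the monocyte attractants *Ccl2* and *Ccl7* and the macrophage inflammatory proteins *Ccl3*, *Ccl4*, *Ccl6* and *Ccl9*. The CXC family holds neutrophil attractants such as *Cxcl1* and *Cxcl2*, the interferon-induced T cell attractants *Cxcl9*, *Cxcl10* and *Cxcl11*, the homeostatic *Cxcl12* and *Cxcl13*, and *Cxcl16*, a membrane-anchored chemokine that also binds modified lipoproteins. Macrophages are a rich source of many of these proteins, and in the vessel wall they are known for recruiting further monocytes.

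Each value below rests on a probe of 50 bases, so the probes of the genes that the results turn on are shown as the annotation lists them. Those that begin within the first 350 bases of their transcript and keep an open reading frame are given whole, and the others by their leading 30 bases. The pairs for *Ccl7* and *Cxcl10* are shown because probes of the same gene gave different readings. No base is in capitals, as no single base of a probe is at issue.
Ccl2, ILMN_1245710: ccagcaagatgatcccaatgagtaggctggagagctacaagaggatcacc
Ccl7, ILMN_2771176: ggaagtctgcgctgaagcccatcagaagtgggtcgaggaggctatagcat
Ccl7, ILMN_2835117: acggtcctaagggataggagctgtctgtag
Cxcl1, ILMN_2763245: ctgtttctcctggtctcgtctcgctcggga
Ccl3, ILMN_1253919: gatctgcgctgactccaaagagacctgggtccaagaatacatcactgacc
Ccl4, ILMN_1224472: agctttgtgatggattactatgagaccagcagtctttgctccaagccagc
Ccl4, ILMN_1223257: cccatggagatggtccaccattgctgtttc
Ccl6, ILMN_2694179: catagaactacggggccagtctgaaactgg
Ccl9, ILMN_2776603: gctacagccatcctaactgcctcagaatca
Cxcl10, ILMN_3142803: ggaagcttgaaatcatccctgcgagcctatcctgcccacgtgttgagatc
Cxcl10, ILMN_1214419: ctacaaatttaagtttgtaaggacgaactt
No chemokine probe sequence was found on another row of the table, and the longest run shared by probes of different chemokine genes was 10 bases, between *Ccl3* and *Ccl7*. The symbols *Ccl21b*, *Ccl21c* and *Ccl27* belong to sets of near-identical gene copies, so their probes are uncertain between the copies.

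Promoter sequences of RefSeq (GRCm38.p6) were matched by symbol or gene identifier for 24 of the 35 genes and for 11 of the 15 genes that were tested. The tested genes *Ccl2*, *Ccl4*, *Ccl7* and *Cxcl16* were among those without an entry. The 250 bases before the start of *Cxcl1* (chr5:90890995-90891244, plus strand) and of its neighbour *Cxcl2* (chr5:90903649-90903898, plus strand) are shown because *Cxcl1* was detected and *Cxcl2* was not. Those of *Ccl9* (chr11:83578637-83578886, minus strand) and *Ccl6* (chr11:83593088-83593337, minus strand) are shown because both genes shifted between the slides.
Cxcl1 promoter: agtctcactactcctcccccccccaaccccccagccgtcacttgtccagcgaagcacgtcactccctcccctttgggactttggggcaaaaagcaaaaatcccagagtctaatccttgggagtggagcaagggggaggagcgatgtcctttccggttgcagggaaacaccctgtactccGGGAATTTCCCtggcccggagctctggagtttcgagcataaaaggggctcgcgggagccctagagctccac
Cxcl2 promoter: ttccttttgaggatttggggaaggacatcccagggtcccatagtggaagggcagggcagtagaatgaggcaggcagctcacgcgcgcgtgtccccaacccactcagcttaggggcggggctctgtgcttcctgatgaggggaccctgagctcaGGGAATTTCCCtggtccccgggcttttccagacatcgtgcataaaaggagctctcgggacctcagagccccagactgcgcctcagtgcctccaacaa
Ccl9 promoter: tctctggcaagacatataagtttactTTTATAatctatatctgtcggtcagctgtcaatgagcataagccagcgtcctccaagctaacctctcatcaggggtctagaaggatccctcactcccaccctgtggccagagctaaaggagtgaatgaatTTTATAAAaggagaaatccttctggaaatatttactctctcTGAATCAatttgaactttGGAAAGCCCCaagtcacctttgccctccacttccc
Ccl6 promoter: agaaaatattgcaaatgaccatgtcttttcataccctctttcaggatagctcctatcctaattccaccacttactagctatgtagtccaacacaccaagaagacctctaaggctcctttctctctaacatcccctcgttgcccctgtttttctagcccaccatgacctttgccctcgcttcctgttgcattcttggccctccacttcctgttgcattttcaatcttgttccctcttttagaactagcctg
Capitals mark matches, on either strand, to the NF-kB consensus, to TATAAA (the TATA box), to TGANTCA (AP-1) and to GAAANNGAA (interferon response). The NF-kB consensus matched both strands over the same run in *Cxcl1*, which begins 71 bases before the start, and likewise in *Cxcl2*, where it begins 97 bases before it. It was present in 7 of the 28 chemokine promoters and in 7.25% of all 32851 promoters of the table. The *Ccl9* promoter held 1 match to the NF-kB consensus, 35 bases before the start, TATAAA on both strands, in part overlapping, and 1 AP-1 match. The TATA box letters occurred in 12.4% and the AP-1 letters in 6.75% of all promoters. The *Ccl6* promoter held no match to any of these letters, and GAAANNGAA, in 7.13% of all promoters, was in none of the 4 promoters shown. A match describes these letters and is not evidence of a bound site.

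Per array, 36.8% to 38.5% of all probes were detected, which means that the deposited detection p-value, a rank against the negative controls of that array, was at most 0.05. Each chemokine signal was the mean of 22 to 75 beads, with a median of 40. The macrophage label was checked with a list of 12 macrophage symbols on the array, of which 11 were tested, including *Emr1*, *Csf1r*, *Cd68*, *Itgam* and *Mrc1*, while the *Msr1* probe was detected on no array. Of 10 fibroblast and mesothelial symbols, 9 were tested and every one was detected on at least 1 array. The collagen-binding proteoglycan gene *Dcn* had a neqc level, the background-corrected and quantile-normalized log2 intensity used throughout, of 12.9 to 13.4 on the control arrays, and the mesothelial gene *Upk3b* one of 11.1 to 11.7. The defining neutrophil genes *Camp*, *Ngp*, *Mpo* and *Retnlg*, the T cell genes *Cd3d* and *Cd3g* and the B cell genes *Cd79b* and *Pax5* were detected on no array. *S100a8*, which monocytes also make, gave a log2 difference of 0.24 (SE 0.09, adjusted p = 0.845 in limma) between Ac-LDL and control, with control values of 9.11 to 9.27 and Ac-LDL values of 9.34 to 9.49 that did not overlap. Over all tested probes, 3.8% had groups that did not overlap, and the *S100a9* probe was detected on no array. The summed level of the neutrophil list (linear neqc scale) was 742 to 781 on control and 839 to 896 on Ac-LDL arrays. *S100a8* is its brightest member and 6 of its 9 symbols were detected on no array, so the sum is no separate observation. The part of these genes in the chemokine differences was not tested. Transcripts of stromal genes were thus present beside those of macrophages, and in bulk RNA fewer cells of a type and less RNA per cell cannot be told apart.

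14 of the 35 chemokine genes were detected on all 4 control arrays by at least 1 probe. These were the CC chemokines *Ccl2*, *Ccl3*, *Ccl4*, *Ccl6*, *Ccl7*, *Ccl9*, *Ccl25* and *Ccl27* and the CXC chemokines *Cxcl1*, *Cxcl4*, *Cxcl10*, *Cxcl12*, *Cxcl14* and *Cxcl16*. They made up 40% of the chemokine genes, beside 36% of all gene symbols, and 22 of the 50 chemokine probes, which is 44%, were detected on all 4 control arrays beside 33.4% of all probes. The share was thus near that of the whole table. Control signals of these 22 probes ran from 53.8 to 5235 (deposited intensity), for example from 1083 to 5235 for *Ccl9*, from 605 to 2903 for *Ccl6* and from 289 to 416 for *Ccl2*.

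5 genes were detected on some of the control arrays. The B cell attractant *Cxcl13* was detected on 2 control and 3 Ac-LDL arrays, with control signals of 49.5, 47.5, 62.9 and 123 in replicates 1 to 4 (given after the values were seen). The eosinophil attractants *Ccl24* and *Ccl11* were detected on 2 and 1 control arrays, the T cell attractant *Ccl5* on 1, and the tethered chemokine *Cx3cl1* on 2. Apart from *Cxcl13*, they did not reach the 4 arrays asked for in the test.

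The other 16 genes were detected on no control array, and 15 of them on no array of either group. They were *Ccl1*, *Ccl17*, *Ccl19*, *Ccl20*, *Ccl21b*, *Ccl21c*, *Ccl22*, *Ccl26*, *Ccl28*, *Cxcl2*, *Cxcl3*, *Cxcl9*, *Cxcl11*, *Cxcl15*, *Cxcl17* and *Xcl1*. *Ccl21c* was the exception, with 1 Ac-LDL array. The neutrophil attractants *Cxcl2* and *Cxcl3* were thus not above the negative controls while *Cxcl1*, their neighbour on chromosome 5, was detected on all 8 arrays. Signals of the 22 probes detected on no array lay between 29.0 and 52.2, so a level below the reach of these probes was not measured. Probes of 1 gene also disagreed. Of the probes shown above for *Cxcl10*, ILMN_3142803 was detected on all 8 arrays and ILMN_1214419 on none. For *Cxcl12*, 3 probes were detected on all 8 arrays and the other 2 (ILMN_3078973 and ILMN_2746295) on none.

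**Figure D1:**
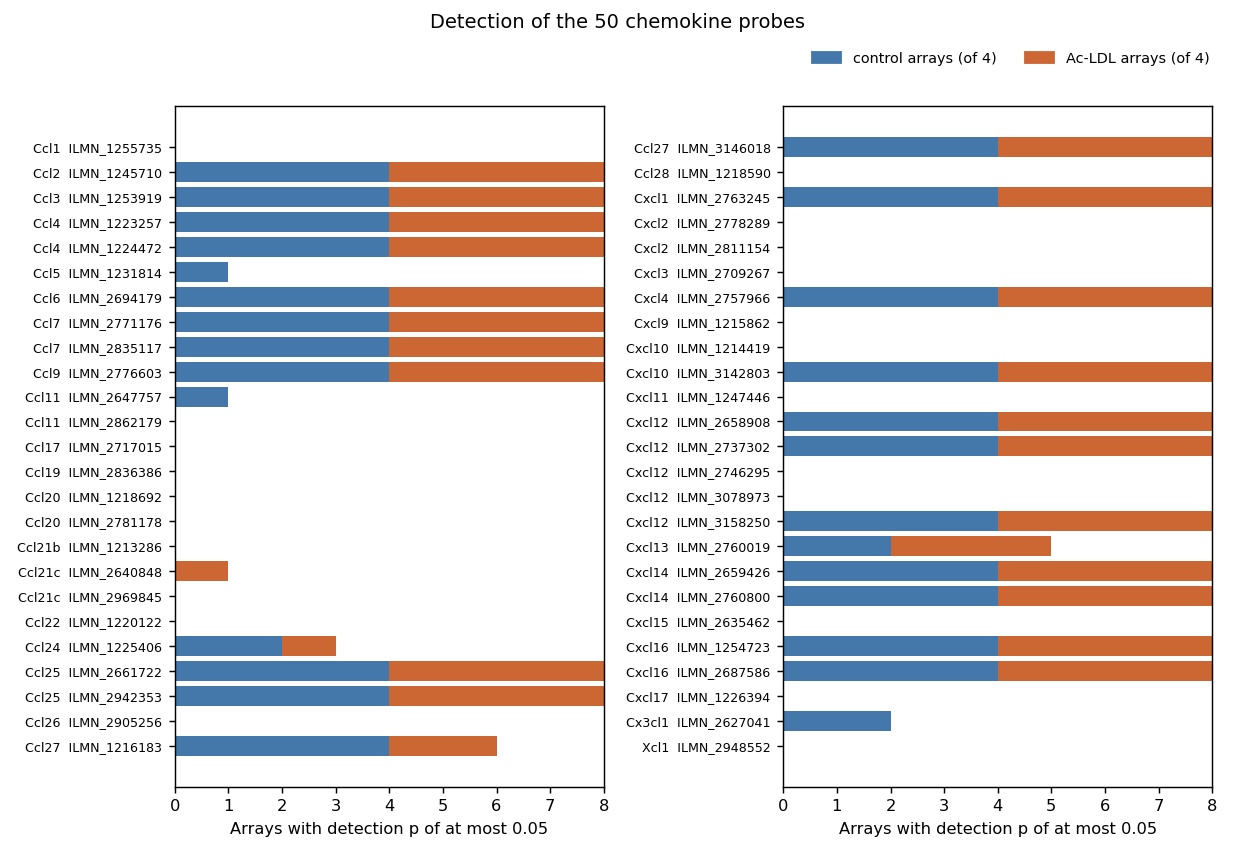
Number of arrays, of 8, on which each of the 50 chemokine probes was detected (detection p-value of at most 0.05), with control arrays in blue and Ac-LDL arrays in orange stacked on the same bar. 22 probes fill all 4 control arrays, and 22 probes have no bar.

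The comparison of Ac-LDL with control asked which chemokine genes change when macrophages load cholesterol. 23 chemokine probes for 15 genes passed the detection filter (4 or more of the 8 arrays) and were tested among 17122 probes with limma. The mean was lower with Ac-LDL for 13 and higher for 10, beside 49.6% lower and 50.4% higher over all probes. No chemokine probe was called at a Benjamini-Hochberg adjusted p under 0.05, where 0.0409% of all tested probes (7 of 17122) were. The largest differences below 0 were those of *Cxcl1*, *Ccl7* and *Ccl2*, and the largest above 0 those of *Ccl9* and *Ccl6*. At an unadjusted p under 0.05, 2 of the 23 passed (*Ccl2* and 1 *Ccl7* probe, both lower), beside 5.2% of all probes and 2.47% lower. The methods' t-test with equal variances called none after adjustment, as it did over all tested probes (0%), and 1 of 23 at an unadjusted p under 0.05, beside 6.07% of all probes.

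Sizes ran above the median of the table, while the direction was mixed. 4 of the 23 probes had a log2 fold change of at least 0.4 in size, beside 2.4% of all probes, and the median size was 0.21 beside 0.09 over all probes. The median log2 fold change was -0.04 beside 0.00. With the replicate number as a block, still no chemokine probe was called (all probes 0.444%), but 10 of 23 passed an unadjusted p under 0.05, 7 lower and 3 higher, beside 13.8% of all probes (6.54% lower and 7.31% higher). With the slide as a block none was called either (all probes 0.321%), and 8 of 23 passed unadjusted, 7 lower and 1 higher, beside 12.1% (5.74% lower and 6.4% higher). Under both blocks the 7 lower probes were those of *Ccl2* and *Cxcl1*, both probes of *Ccl7* and of *Cxcl16*, and ILMN_2942353 of *Ccl25*. 10 of 23 probes went the same way in all 4 pairs of equal replicate number, 6 lower and 4 higher, beside 21.8% of all probes (10.3% lower and 11.5% higher).

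**Figure D2:**
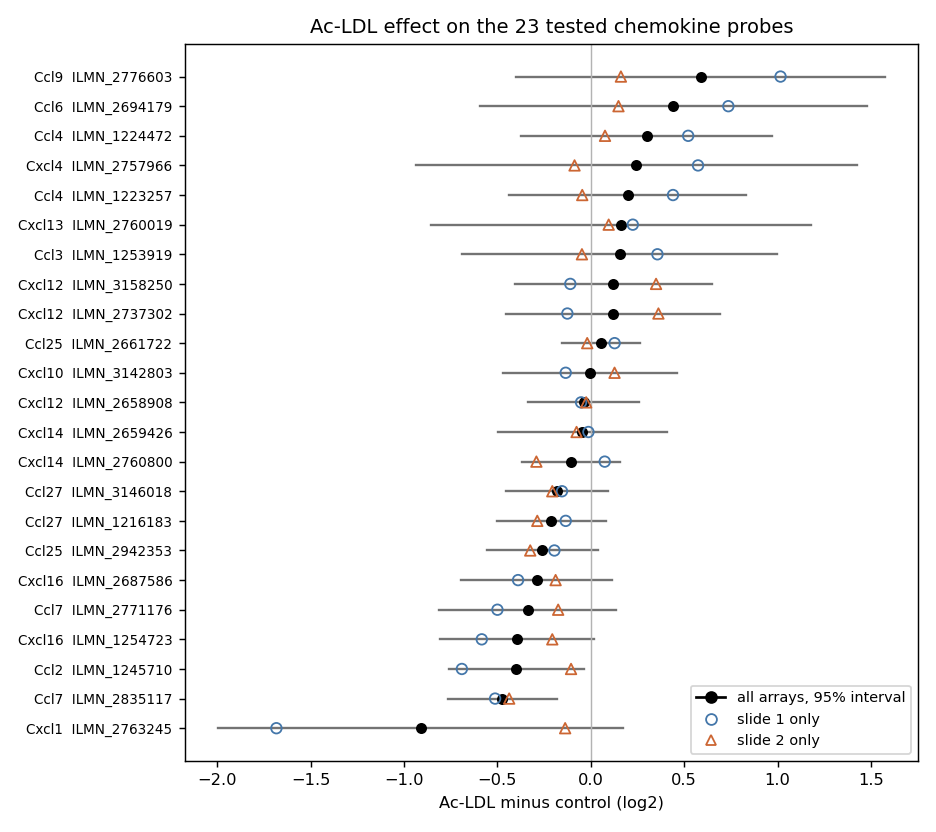
Log2 fold change (Ac-LDL minus control) of the 23 tested chemokine probes, with black points and 95% intervals from limma on all 8 arrays, blue circles for slide 1 only and orange triangles for slide 2 only. *Cxcl1* lies lowest at -0.91 and *Ccl9* highest at 0.59, and the slide 2 values lie nearer to 0 than the slide 1 values for both.

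*Ccl2* and *Ccl7*, the attractants of monocytes, lay lower with Ac-LDL in every pair. The *Ccl7* probe ILMN_2835117 stood at 9.06, 9.10, 8.76 and 9.09 (neqc log2 level) in control replicates 1 to 4 and at 8.41, 8.73, 8.28 and 8.70 in Ac-LDL replicates 1 to 4. All 4 Ac-LDL values lay below all 4 control values, the sole chemokine probe of 23 whose groups did not overlap, beside 3.8% of all probes (1.68% with Ac-LDL lower). Its log2 fold change was -0.47 (SE 0.13, 95% interval -0.77 to -0.18, n = 4 per group). The exact permutation p was 0.0286, the smallest that 4 against 4 arrays can give, and it restates the lack of overlap. Its assignments ignored slide and replicate number. In limma the adjusted p was 0.618 without a block, 0.0596 once the replicate block was added and 0.165 for the slide block. The difference was nearly the same on both slides, -0.51 on slide 1 and -0.44 on slide 2, and the difference between them had an adjusted p of 0.955 in limma.

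The second *Ccl7* probe, ILMN_2771176, lies further 5′ in the transcript. It stood at 9.92, 10.40, 9.43 and 9.53 (neqc log2) in the control replicates and at 9.44, 9.88, 9.29 and 9.33 in the Ac-LDL replicates. Each Ac-LDL value lay below the control value of its number, but the groups overlapped, as both control values on slide 2 were below the Ac-LDL value of replicate 2. It gave a log2 fold change of -0.34 (SE 0.21), -0.50 on slide 1 and -0.17 on slide 2. The limma adjusted p was 0.961 without a block and 0.189 with the replicate block. Without control replicate 2 the log2 fold change was -0.15. With the mean of each slide removed, both *Ccl7* probes had groups that did not overlap, 2 of 23 beside 9.93% of all probes (4.56% with Ac-LDL lower).

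*Ccl2*, the main ligand of the monocyte receptor *Ccr2*, fell just short of the size asked for and is given by array after its values were seen. It stood at 8.41, 8.64, 7.95 and 8.20 (neqc log2) in the control replicates and at 7.59, 8.08, 7.90 and 8.04 in the Ac-LDL replicates. The lowest value was that of Ac-LDL replicate 1, and the control value of replicate 3 lay within the Ac-LDL range. Its log2 fold change was -0.40 (SE 0.16, 95% interval -0.76 to -0.04), with an adjusted p of 0.895 in limma and 0.246 with the replicate block. It was -0.69 on slide 1 and -0.11 on slide 2, a difference between slides with an adjusted p of 0.591. The *Ccr2* probe itself was detected on no array.

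*Cxcl1*, a neutrophil attractant induced through NF-kB, gave the largest difference of the 23 probes, with its highest values on the control arrays of slide 1. The control values were 8.93 and 8.55 (neqc log2) in replicates 1 and 2 on slide 1 and 6.62 and 6.71 in replicates 3 and 4 on slide 2. The Ac-LDL values were 7.05, 7.06, 6.44 and 6.62 in the same order. The 2 control arrays of slide 1 stood above the other 6 arrays, while on slide 2 the groups overlapped. The log2 fold change over all arrays was -0.91 (SE 0.49, 95% interval -1.99 to 0.17). The limma adjusted p was 0.960 without a block and 0.223 with the replicate block, and the value was lower with Ac-LDL in 4 of 4 pairs. Without control replicate 1 the log2 fold change was -0.50.

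Within slide 1, *Cxcl1* fell by 1.68 on the log2 scale (SE 0.15), with a limma adjusted p of 0.0254, and it was the sole chemokine probe called in that fit, beside 0.0818% of all probes. That fit rests on 2 arrays against 2. Within slide 2 the difference was -0.14 (SE 0.13, adjusted p = 0.870 in limma), and no chemokine probe was called there, beside 0.0934% of all probes. The difference between the slides in the effect on *Cxcl1* was 1.55, with an adjusted p of 0.144 in limma and 0.132 with the replicate block, so the fall on slide 1 was not shown to differ from the change on slide 2. Over all 23 probes the test of this difference called none (0% of all tested probes), with 2 of 23 at an unadjusted p under 0.05 beside 8.38%. With the replicate block it called none of the 23 either, beside 0.0117% of all probes, while 10 of 23 had an unadjusted p under 0.05, beside 12.6%.

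Among the macrophage inflammatory proteins, *Ccl9* (MIP-1 gamma) had the largest difference, which was not called. It stood at 9.85, 10.62, 11.56 and 12.16 (neqc log2) in control replicates 1 to 4 and at 11.10, 11.40, 11.80 and 12.24 in the Ac-LDL replicates. Ac-LDL was higher in 4 of 4 pairs, but the spread between control replicates, with an SD of 1.02, was wider than the difference between the means. The log2 fold change was 0.59 (SE 0.44, 95% interval -0.40 to 1.58), with a limma adjusted p of 0.968 that became 0.213 with the replicate block. Without control replicate 1 the log2 fold change was 0.19, and without control replicate 4 it was 0.96. It was 1.02 on slide 1 (adjusted p = 0.166 in limma) and 0.16 on slide 2.

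*Ccl6* (C10) was likewise lowest in control replicate 1 and highest in Ac-LDL replicate 4. Its control values were 8.98, 10.09, 10.68 and 11.33 and its Ac-LDL values 9.93, 10.61, 10.79 and 11.52 (neqc log2, replicates 1 to 4). Ac-LDL minus control was 0.44 (log2, SE 0.47, adjusted p = 0.986 in limma, 0.224 with the replicate block), at 0.74 on slide 1 (adjusted p = 0.422 in limma), where the groups overlapped, and 0.15 on slide 2. It was 0.013 without control replicate 1 and 0.80 without control replicate 4. All 4 slide 2 arrays lay above the 4 slide 1 arrays, whatever the treatment.

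*Ccl3* and *Ccl4*, which attract monocytes and T cells and are given by array after their values were seen, differed less. *Ccl3* stood at 9.15, 9.81, 10.58 and 10.91 in the control replicates and at 9.58, 10.09, 10.57 and 10.83 in the Ac-LDL replicates (neqc log2). The log2 fold change of *Ccl3* was 0.15 (SE 0.38, adjusted p = 0.993 in limma), 0.36 on slide 1 and -0.05 on slide 2, so that its direction differed between the slides. Of the *Ccl4* probes, ILMN_1223257 gave 0.20 (SE 0.28), 0.44 on slide 1 and -0.05 on slide 2, and ILMN_1224472 gave 0.30 (SE 0.30), 0.52 and 0.08. With 1 array left out, the latter probe ran from 0.037 to 0.54.

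*Cxcl4* (platelet factor 4), best known from platelets, had control values of 7.70, 7.91, 9.08 and 10.003 and Ac-LDL values of 8.00, 8.76, 8.88 and 10.03 (neqc log2, given after the values were seen). The highest values of both groups were those of replicate 4. Ac-LDL minus control was 0.24 (log2, SE 0.53, adjusted p = 0.993 in limma), 0.57 on slide 1 and -0.09 on slide 2.

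**Figure D3:**
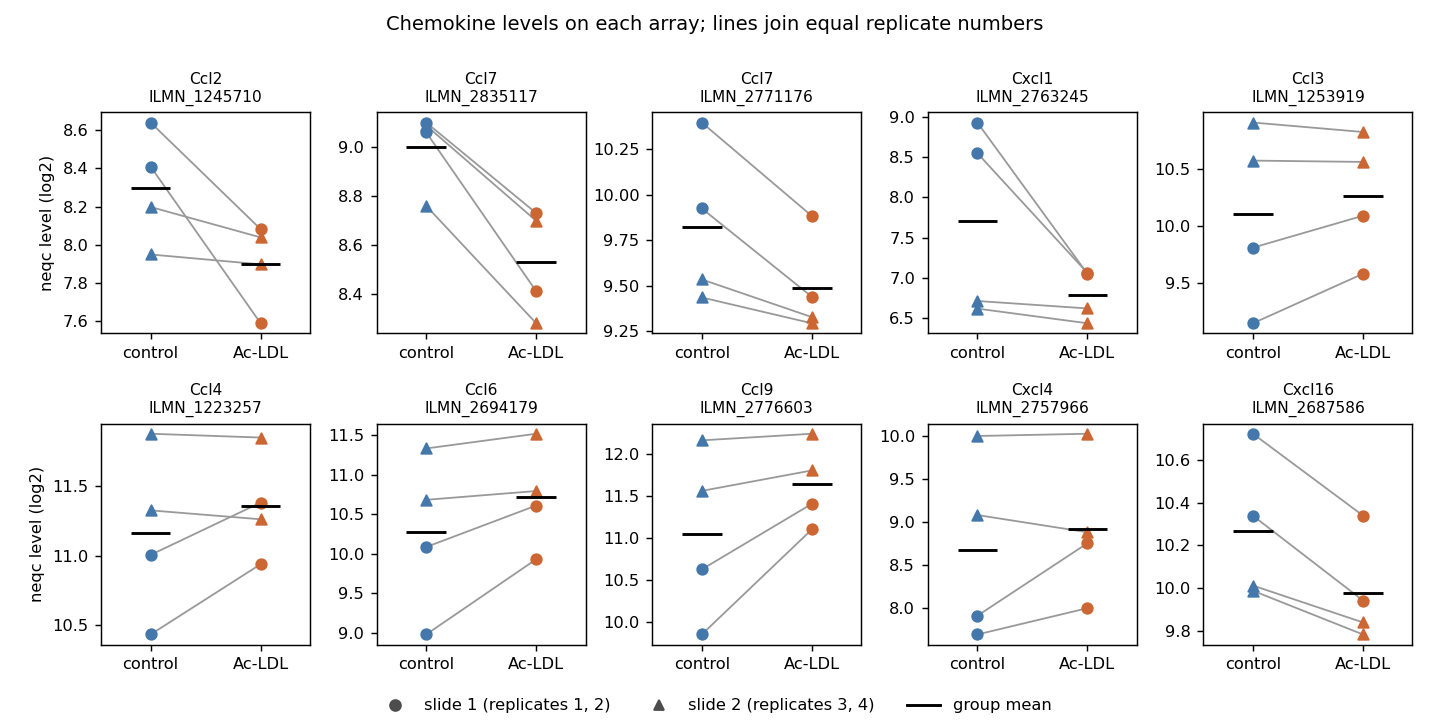
Neqc level (log2, 1 panel per probe with its own axis) on each of the 8 arrays for *Ccl2*, both *Ccl7* probes, *Cxcl1*, *Ccl3*, *Ccl4*, *Ccl6*, *Ccl9*, *Cxcl4* and *Cxcl16*, with circles for slide 1, triangles for slide 2, grey lines between equal replicate numbers and black bars at the group means. In the *Ccl7* probe ILMN_2835117 no Ac-LDL point reaches the control points, and in *Cxcl1* the 2 slide 1 control points stand apart from the other 6.

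On slide 1, 6 of the 11 tested macrophage markers (*Emr1*, *Fcgr1*, *Itgam*, *Lyz*, *Mertk* and *Mrc1*) had both Ac-LDL values above both control values, beside 22.8% of all probes, 1 (*Cd68*) had both below, beside 22.8% as well, and 4 overlapped. The markers given by array here were chosen after their values were seen. *Mrc1* (the mannose receptor) stood at 9.17 and 9.80 (neqc log2) in the control arrays of slide 1 and at 9.96 and 10.25 in the Ac-LDL arrays beside them, and all 4 arrays of slide 2 lay above these. *Itgam* (CD11b) stood at 5.44 and 5.83 in the control arrays and at 6.26 and 6.27 in the Ac-LDL arrays of slide 1. Both were lowest in the control arrays of slide 1, as *Ccl9* was. *Cd68* went the other way on slide 1, at 13.05 and 13.17 in the control arrays and 12.97 in both Ac-LDL arrays, and *Cd14* stood at 10.01 and 10.35 in control and at 9.68 and 10.04 with Ac-LDL. Of the 11 tested macrophage genes, 7 had a higher and 4 a lower mean with Ac-LDL, beside 50.4% and 49.6% of all probes. None was called in limma without a block, beside 0.0409% of all probes. Their median log2 fold change was 0.05, beside 0.00. With the replicate block, *Mertk*, a receptor for dying cells, was called (log2 fold change 0.56, adjusted p = 0.0364 in limma), beside 0.444% of all probes, and with the slide block it was not (adjusted p = 0.166). Their summed level (linear neqc scale) ran from 73094 to 88628 on the control arrays and from 76848 to 88417 on the Ac-LDL arrays. Their part in the chemokine differences was not tested.

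*Cxcl16*, the scavenger receptor for phosphatidylserine and oxidized lipoprotein, was lower in 4 of 4 pairs by the probe ILMN_2687586. This probe stood at 10.34, 10.72, 10.01 and 9.99 in the control replicates and at 9.94, 10.34, 9.84 and 9.78 in the Ac-LDL replicates (neqc log2, given after the values were seen). The groups overlapped, since Ac-LDL replicate 2 was no lower than control replicate 1. The difference was -0.29 (SE 0.18, adjusted p = 0.961 in limma, 0.199 with the replicate block), -0.39 on slide 1 and -0.19 on slide 2, and -0.14 without control replicate 2. The second probe, ILMN_1254723, gave -0.39 (SE 0.18), was lower in 3 of 4 pairs and came no nearer to 0 than -0.21 when 1 array was left out.

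The remaining tested genes had differences of at most 0.26 in size. *Cxcl10*, an interferon-induced T cell attractant, had a mean of 5.63 ± 0.34 in control and 5.63 ± 0.38 with Ac-LDL (neqc log2, SD, n = 4), and the 95% interval of its difference ran from -0.47 to 0.46. *Cxcl12*, the ligand of *Cxcr4*, gave -0.04 (SE 0.13) by the probe ILMN_2658908 and 0.12 by both others. These others changed sign between the slides, from -0.11 to 0.35 (ILMN_3158250) and from -0.13 to 0.36 (ILMN_2737302). *Cxcl13* gave 0.16 (SE 0.46). *Cxcl14* gave -0.04 (SE 0.20) and -0.11 (SE 0.12) by its 2 probes, the latter 0.07 on slide 1 and -0.29 on slide 2. *Ccl25*, a thymus and gut chemokine, gave -0.26 (SE 0.13) by ILMN_2942353 and 0.05 (SE 0.09) by ILMN_2661722, and the skin chemokine *Ccl27* gave -0.18 (SE 0.12) and -0.21 (SE 0.13). With 1 array left out, the *Ccl27* values rose to at most -0.10 and -0.13. The adjusted p of the probes of these remaining genes in limma without a block ran from 0.960 to 1.00. *Cxcl12* and *Cxcl14* are also made by stromal cells, and the summed level of the fibroblast and mesothelial list (linear neqc scale) ran from 12859 to 17961 on control arrays and from 14088 to 16206 on Ac-LDL arrays.

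More chemokine probes were called between the slides than between the treatments. With treatment in the model, 10 of 23 probes differed between slides at an adjusted p under 0.05 in limma, 7 higher and 3 lower on slide 2, beside 23.6% of all probes (11.7% higher and 11.9% lower). This fit took the 4 arrays of each slide as separate, although arrays of equal replicate number deviated together. The comparison rests on replicates 1 and 2 against 3 and 4, so its SE and p-values may be too small. 6 of 23 differed by at least 1 on the log2 scale, beside 0.859% of all probes. 1 of these, *Cxcl13*, was detected on 1 of 4 arrays of slide 1 and on 4 of 4 of slide 2, so that it entered the fit through the slide where it was high. Among the 22 probes detected on at least 2 arrays of each slide, 6 were called higher and 3 lower, and 5 differed by at least 1. On slide 2, *Cxcl4* was higher by 1.41 (SE 0.29, adjusted p = 0.00798), *Ccl9* by 1.20 (SE 0.23, adjusted p = 0.00614), *Ccl6* by 1.18 (SE 0.28) and *Ccl3* by 1.06 (SE 0.17). Both *Ccl4* probes were higher there as well, by 0.64 and 0.76. *Cxcl1* differed by -1.30 (SE 0.26, adjusted p = 0.00723), the *Ccl7* probe ILMN_2771176 by -0.51 and the *Cxcl16* probe ILMN_2687586 by -0.43. The *Ccl2* probe and the other *Ccl7* probe were not called, at -0.16 (SE 0.15) and -0.12 (SE 0.12).

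**Figure D4:**
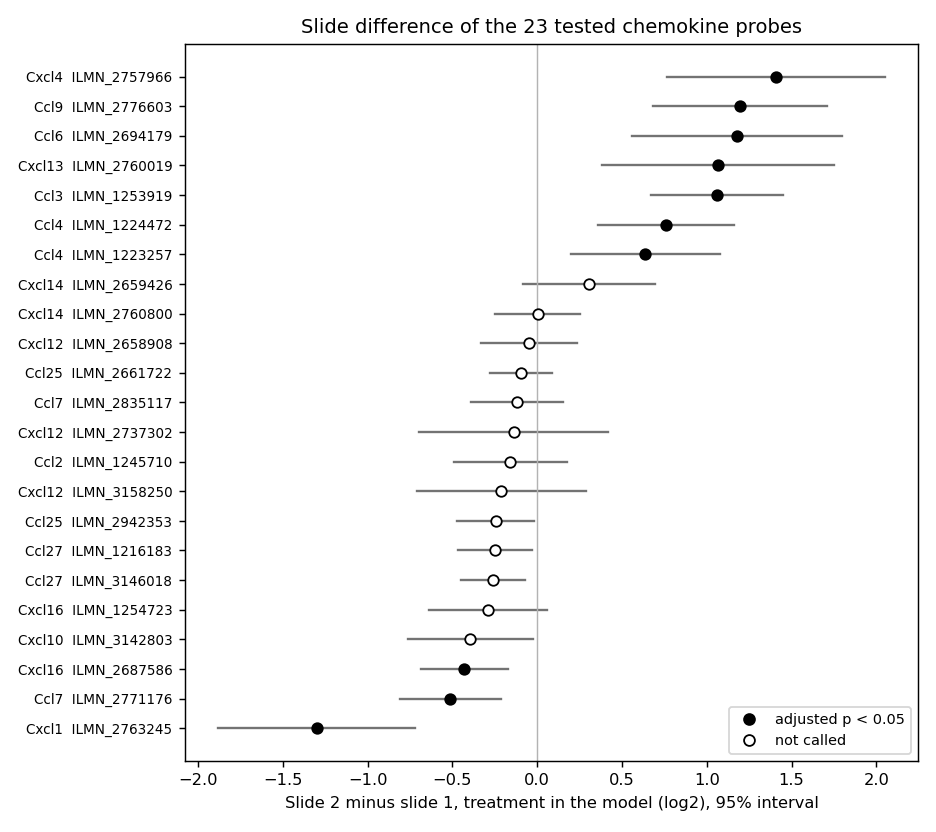
Difference between slides (slide 2 minus slide 1, log2, treatment in the limma model) of the 23 tested chemokine probes with 95% intervals, filled where the adjusted p was under 0.05. *Cxcl4*, *Ccl9*, *Ccl6*, *Cxcl13* and *Ccl3* lie above 1, and *Cxcl1* lies at -1.30. The *Cxcl13* probe was detected on 1 of 4 slide 1 arrays.

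Some macrophage genes differed between the slides too. The log2 difference was 1.19 for *Emr1*, 1.07 for *Mrc1*, 1.01 for *Itgam* and 0.79 for *Csf1r*, while *Cd68* gave 0.06. In the same fit, with the same limit on its p-values, 6 of the 11 tested macrophage genes were called, beside 23.6% of all probes. Their summed level (linear neqc scale) lay between 73094 and 77995 on slide 1 and between 85601 and 88628 on slide 2, without overlap. Of the 9 tested fibroblast and mesothelial genes 2 were called, a share near that of all probes, and *Lum* differed by -0.99. On slide 2, 8 of the 9 were lower and 1 higher, with a median of -0.17 beside -0.02 over all probes. Their summed level on control arrays lay between 16511 and 17961 on slide 1 and between 12859 and 15874 on slide 2. On Ac-LDL arrays it ran from 15423 to 16206 on slide 1 and from 14088 to 16008 on slide 2, which overlap. The part of these genes in the slide differences of the chemokines was not tested.

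Of the chemokine receptors, 18 symbols were on the array, 11 were detected on no array, among them *Ccr1*, *Ccr2* and *Ccr3*, and 5 were tested. None of the 5 was called in limma without a block (all probes 0.0409%), with the replicate block (0.444%) or with the slide block (0.321%). *Cx3cr1*, the receptor of *Cx3cl1*, had the largest difference at -0.75 (SE 0.42, adjusted p = 0.961 in limma). Its control values were 5.64, 5.96, 7.14 and 7.77 and its Ac-LDL values 5.49, 5.96, 5.63 and 6.43 (neqc log2), so that the control arrays of slide 2 stood highest. *Cxcr4*, the receptor of *Cxcl12*, gave -0.38 (SE 0.16). *Il8ra* gave -0.17 (SE 0.22) but was detected on 4 of the 8 arrays, the fewest that the filter let through. Its neqc log2 levels, given after they were seen, ran from 5.14 to 5.63 on slide 1 and from 4.59 to 4.78 on slide 2. *Cxcr3* gave 0.37 (SE 0.17) but was detected on 5 of the 8 arrays. Its levels, given after they were seen, were 4.53, 4.49, 5.12 and 4.67 in control and 4.93, 4.96, 4.98 and 5.45 with Ac-LDL (neqc log2). It may thus have passed the filter through the Ac-LDL group, and its difference is not read as a change. Of the atypical receptors 3 were tested and none was called, and *Ccrl2*, which holds chemerin at the cell surface, gave -0.22 (SE 0.15).

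2 further lists set the chemokines beside pathways known to drive them. Of 16 inflammatory cytokine and NF-kB feedback genes, 10 were tested. The mean was lower under Ac-LDL in 7 and higher in 3, beside 49.6% and 50.4% of all probes. None was called without a block (all probes 0.0409%), with the replicate block (0.444%) or with the slide block (0.321%). Their median log2 fold change was -0.18, beside 0.00 over all probes. *Nfkbiz*, an NF-kB cofactor, gave -0.55 (SE 0.17, adjusted p = 0.764 in limma), *Tnfaip3*, a feedback inhibitor, -0.30 (SE 0.12), and *Tnf* itself -0.31 (SE 0.16), whereas *Il1a* gave 0.37 (SE 0.14). The *Il1b*, *Ptgs2* and *Nos2* probes were detected on no array. Of the 8 tested interferon response genes 6 were lower and 2 higher, with a median of -0.14. The shares and the median of all probes are those given for the list before. *Usp18* gave -0.72 (SE 0.27, adjusted p = 0.854 in limma) and was the sole gene of that list called with the replicate block (adjusted p = 0.0393 in limma), beside 0.444% of all probes, and with the slide block it was not called (adjusted p = 0.0710).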

How the data were processed

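The arrays read RNA of control and Ac-LDL macrophages, which the labels give as total RNA and the study's methods as mRNA purified from it. For each probe the authors deposited the mean bead intensity with no normalization, a detection p-value against the negative controls, and the standard error and number of the beads. The study normalized these in GeneSpring GX, and its normalized values were not used. The submitters' processing notes name BeadStudio, and the genome build is not given in the sources used here. Every deposited column that belongs to a sample was mapped.

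Intensities were processed with neqc in limma 3.58.1 (R 4.3.3), that is normexp with an offset of 16, quantile normalization and log2. Probes detected (p-value up to 0.05) on 4 or more of the 8 arrays were fitted with lmFit and eBayes, with Benjamini-Hochberg adjustment over all of them at 0.05. For a gene with several probes the tested probe of highest mean stood for it, and values on every array were given for genes called, not overlapping or with a log2 fold change of at least 0.4 in size. Genes given by array outside this rule are marked as chosen after their values were seen, and the fit of the slide difference was added after seeing the data. Exact permutation tests were two-sided over 70 assignments. The members and lists were chosen with earlier results of these data known. Alternatives changed the block, the slide, the arrays, the background correction, the normalization, the filter or the test, 1 at a time. The fits were tested on simulated data with known changes. The simulated noise was independent between arrays, whereas in the data arrays of equal replicate number deviated together. The simulation thus does not show how the fits behave with such pairs. The values of 1 gene of the receptor list are not reported here. The number of arrays limits the precision.

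Samples of equal replicate number deviated together. They were taken as pairs in the fit with the replicate block and in the counts over pairs, while limma without a block left the pairing out. Across probes, deviations from the group means correlated at 0.579, 0.479, 0.468 and 0.629 between a control and an Ac-LDL array of the same number, at 0.188 to 0.447 between arrays of other numbers on the same slide, and at -0.318 or below between slides. The labels call the replicates biological without saying that they came from separate animals, so p-values measure the spread between these samples.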

Additional observations from a re-analysis of the deposited data

Results flagged for a closer look

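Of 46 groups of 4 arrays (23 tested chemokine probes in 2 groups), 2 held an array that stood apart from the other 3 by more than Dixon's 95% limit, where chance gives 2.3 (about 1 in 20). The *Ccl7* probe ILMN_2835117 stood at 8.76 (neqc log2) in control replicate 3, and the other control arrays lay between 9.06 and 9.10. The *Cxcl14* probe ILMN_2659426 stood at 7.14 in Ac-LDL replicate 4, and the other Ac-LDL arrays lay between 6.46 and 6.56.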

How the results depend on the processing

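No chemokine probe was called under any alternative but slide 1 only, which called 1 (*Cxcl1*, -1.68). With the replicate block, the adjusted p of *Ccl7* (ILMN_2835117) came nearest to the threshold among fits on all arrays, at 0.0596, and the block changed no chemokine call. The median log2 fold change moved from -0.04 to -0.11 on slide 1, to -0.0761 on slide 2 and to -0.15 without quantile normalization (all probes -0.09), and ran from -0.120 to -0.00779 when 1 array was left out. Probes with groups that did not overlap rose from 1 to 2 without quantile normalization (*Ccl2* joining). No share over all probes is given for that setting, where the median of all probes was lower too, so the rise is not read as a result. With slide means removed the count was also 2, beside 9.93% of all probes. Genes detected in control stayed at 14 at a detection p-value of 0.01 or on 3 of 4 arrays, and 19 were detected on at least 1.

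Of 285 single-gene values (15 genes, 19 alternatives), 262 kept their direction and side of the threshold and 22 reversed, and 8 genes kept their sign throughout. On slide 2 only, the log2 fold change reversed to -0.0473 for *Ccl3*, -0.0457 for *Ccl4*, 0.127 for *Cxcl10* and -0.0869 for *Cxcl4*. Leaving out 1 array unbalances the slides. It gave ranges of -0.17 to 0.42 for *Ccl3*, -0.0448 to 0.44 for *Ccl4*, -0.15 to 0.15 for *Cxcl10*, -0.118 to 0.0586 for *Cxcl12*, -0.23 to 0.57 for *Cxcl13*, -0.20 to 0.11 for *Cxcl14* and -0.13 to 0.69 for *Cxcl4*. *Cxcl1* stayed between -1.27 and -0.50. Probes near background, such as *Ccl11*, *Ccl24* and *Ccl5*, limit what can be said of dim genes.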
